A study of Mus musculus with 8 samples.

Results

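The aryl hydrocarbon receptor group examined here held 6 genes, picked by gene symbol from the 16940 genes of the deposited TT-seq table: the receptor Ahr, its partner Arnt, the repressors Ahrr and Tiparp, and the cytochromes Cyp1a1 and Cyp1b1. All 6 were listed and all 6 had a mean of at least 10 normalized reads over the 8 libraries, the minimum for testing. The symbols were chosen with earlier results of these data in view, in which Cyp1a1 stood among the most changed genes, so Cyp1a1 is described here without a test. Cyp1b1 has none either, because it was listed and passed the minimum only through the groups in which it was high. New transcription of Ahrr rose with IAA and was higher with wild-type than with mutated CTCF, and the levels of Cyp1a1 and Cyp1b1, given without a test, differed in the same directions. Ahr, Arnt and Tiparp differed by less than 1.2-fold between any groups.

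The aryl hydrocarbon receptor is a transcription factor of the bHLH-PAS family that waits in the cytosol in a complex with HSP90 and the cochaperone p23. When a planar aromatic ligand binds, it moves to the nucleus, pairs with ARNT and binds DNA elements with the core GCGTG, next to genes such as Cyp1a1 and Cyp1b1. These cytochromes oxidise many of the ligands, while AHRR and the ADP-ribosyltransferase TIPARP, both made from target genes, limit the receptor. Known ligands include pollutants and several tryptophan-derived indoles, and the auxin IAA (indole-3-acetic acid) is an indole as well.

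The cells were E14 mouse embryonic stem cells grown without serum in LIF with the inhibitors PD0325901 and CHIR99021. In all 4 groups CTCF, the zinc-finger protein that anchors chromatin loops, carried an auxin-inducible degron (AID), through which IAA causes the tagged protein to be degraded. The untreated control was the CTCF AID line with a control overexpression and no IAA, and the IAA-treated control was that line after 12 h of IAA. The wild-type and mutated CTCF groups were CTCF AID lines overexpressing either form, also after 12 h of IAA; the labels name neither the mutation nor the number of clones. Each group had 2 replicates, not said to be separate cultures, so p-values measure the spread between these samples, which may be technical. No IAA-treated line without the degron and no wild-type or mutated CTCF line without IAA was analysed here, so effects of IAA itself and of CTCF loss cannot be told apart, nor can a CTCF form and its line. RNA made during 15 min of labelling with 400 µM 4-thiouridine was sequenced, so values report recent transcription.

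Libraries held 15671114 to 21561141 reads, and 1 read was worth 0.836 to 1.19 normalized reads. Of the 8 embryonic stem cell markers all were listed. Their summed normalized reads were 50301 and 51171 without IAA and 53116 and 54442 in the IAA-treated control. Tfcp2l1 carried this rise, at 13254 and 13623 without IAA and 18050 and 19112 in the IAA-treated control. With IAA, 2 of the 8 were called higher and 2 lower (19.4% and 18.4% of all genes). The lower ones were Esrrb and Zfp42, with log2 fold changes of -0.14 and -0.15. The sums were 57664 and 61546 with wild-type and 57431 and 60165 with mutated CTCF. Against the untreated control, 6 of 8 were called higher and 0 lower with wild-type CTCF (27.6% and 15.6% of all genes). After median-of-ratios rescaling 4 of the 8 were higher and 0 lower, and with equal totals 4 were higher and 1 lower. With mutated CTCF against the untreated control 6 were higher and 1, Zfp42, was lower (24% and 13.7% of all genes). Either of these scalings gave 5 higher and 1 lower there. Between the CTCF forms 2 were higher and 3 lower with mutated CTCF (16.3% and 18.4% of all genes). The listed primitive endoderm markers (3 of 5) summed to 186 to 305 normalized reads, and those of mesoderm (2 of 3) to 42.8 to 93.1 and of neuroectoderm (2 of 3) to 156 to 284. Of trophoblast markers only Gata3 (1 of 3) was listed, at 0 to 10.7, and only through wild-type CTCF. The fibroblast and hepatocyte markers, 4 each, were not among the listed genes. Nes carried the neuroectoderm sum, at 151 and 149 without IAA, 209.6 and 210.1 in the IAA-treated control, 244 and 211 with wild-type and 281 and 268 with mutated CTCF, and rose by 0.48 with IAA (adjusted p = 3.9e-04). Pax6, below the minimum mean and untested, was also higher with IAA, at 5.02 and 9.48 without it and 13.1 and 10.999 in the IAA-treated control. It stood at 19.2 and 11.8 with wild-type CTCF. Only with mutated CTCF did Pax6 go another way than Nes, at 3.13 and 5.93. The primitive endoderm genes moved in opposite directions with IAA: Pdgfra rose by 1.78 (adjusted p = 7.7e-09) and Gata4 by 0.64 (adjusted p = 3.6e-04), and Gata6 fell by 0.59 (adjusted p = 0.024). Eomes of the mesoderm list was at 80.4 and 82.4 with wild-type and 38.7 and 54.4 with mutated CTCF (a difference of -0.81, SE 0.21, limma adjusted p = 0.0027). Their part in the results was not tested. In these bulk samples fewer cells expressing a gene and less RNA per cell cannot be told apart.

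The receptor gene Ahr (ENSMUSG00000019256.17, chromosome 12, 35497974 to 35535038, minus strand, GENCODE M21 on GRCm38) was transcribed in every library. It stood at 924 and 894 normalized reads in the untreated control and at 800.5 and 767 in the IAA-treated control. With wild-type CTCF it stood at 907 and 899, and with mutated CTCF at 830 and 841. The IAA-treated control was thus the lowest group, without overlap with the other 3. With IAA, Ahr fell by 0.21 on the log2(value + 1) scale used for all fold changes here (SE 0.059, limma adjusted p = 0.0037), and it was 0.20 above the IAA-treated control with wild-type CTCF (SE 0.059, adjusted p = 0.0070). Both calls were lost without single libraries, although the fold changes stayed close. The IAA effect was -0.19 without replicate 1 of the untreated control and -0.18 without replicate 2 of the IAA-treated control, neither past the threshold. The difference with wild-type CTCF was 0.17 without replicate 2 of the IAA-treated control, also not past it. Mutated and wild-type CTCF differed at Ahr by -0.11 (95% interval -0.23 to 0.0075, adjusted p = 0.14). Mutated CTCF against the untreated control gave -0.12 (adjusted p = 0.11), which passed with an adjusted p of 0.012 after median-of-ratios rescaling and 0.0031 with equal totals.

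Arnt (ENSMUSG00000015522.18, chromosome 3, 95434388 to 95497240, plus strand), which encodes the partner of the receptor and of the hypoxia factors, stood at 3362 and 3541 normalized reads in the untreated control and 3607 and 3815 in the IAA-treated control. The wild-type CTCF libraries lay at 3499 and 3381, both between the untreated libraries. The mutated CTCF libraries lay at 3994 and 3987, above all others. Arnt was higher with mutated than with wild-type CTCF by 0.21 (SE 0.040, adjusted p = 4.3e-05) and higher with mutated CTCF than in the untreated control by 0.21 (SE 0.040, adjusted p = 4.5e-05). Against the IAA-treated control it was 0.11 higher with mutated CTCF (adjusted p = 0.037) and 0.11 lower with wild-type CTCF (adjusted p = 0.033), and with IAA it rose by 0.10 (adjusted p = 0.035). These last calls were lost without single libraries or without the mean-variance trend. The IAA call had an adjusted p of 0.23 with equal totals and 0.296 and 0.35 without replicate 1 of the untreated control or replicate 2 of the IAA-treated control. The wild-type call had 0.34 and 0.23 without replicate 2 of the IAA-treated control or of wild-type CTCF, and the mutated call 0.27 after median-of-ratios rescaling, 0.0998 with equal totals, 0.37 without replicate 1 of the IAA-treated control, and 0.12 without either mutated CTCF library.

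Ahrr (ENSMUSG00000021575.16, chromosome 13, 74211118 to 74292331, minus strand) encodes the repressor that competes with the receptor for ARNT and is itself a receptor target. It stood at 38.4 and 47.4 normalized reads in the untreated control and at 192 and 209 in the IAA-treated control. With wild-type CTCF it reached 268 and 280, and with mutated CTCF 64.8 and 73.2. The 4 groups did not overlap, in the order untreated control, mutated CTCF, IAA-treated control, wild-type CTCF. Ahrr rose with IAA by 2.20 (SE 0.14, adjusted p = 4.5e-16), a 4.67-fold ratio of means. It was lower with mutated than with wild-type CTCF by -1.98 on that scale (SE 0.14, limma adjusted p = 2.9e-14), and lower than in the IAA-treated control by -1.53 (adjusted p = 3.8e-11). With mutated CTCF it was 0.68 higher than in the untreated control (SE 0.14, adjusted p = 2.2e-04). The step of 0.45 from the IAA-treated control to wild-type CTCF (SE 0.14, adjusted p = 0.014) had an adjusted p of 0.12 without replicate 1 of the IAA-treated control, 0.099 without replicate 2 of wild-type CTCF and 0.058 without the mean-variance trend.

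Tiparp (ENSMUSG00000034640.9, chromosome 3, 65528410 to 65555518, plus strand), the ADP-ribosyltransferase known to mark the receptor and shorten its activity, did not have this order. Its libraries lay at 3589 and 3723 normalized reads in the untreated control, 3180 and 3160 in the IAA-treated control, 3135 and 3200 with wild-type CTCF, and 3028 and 3076 with mutated CTCF. The untreated control was above the 3 groups with IAA, and the IAA-treated control and wild-type CTCF overlapped. With IAA, Tiparp fell by 0.21 (SE 0.039, adjusted p = 4.9e-05), and was lower than in the untreated control by -0.21 with wild-type CTCF (adjusted p = 4.0e-05) and by -0.26 with mutated CTCF (adjusted p = 9.6e-07). The CTCF forms differed at Tiparp by -0.053 (95% interval -0.13 to 0.026, adjusted p = 0.30). Against the IAA-treated control, mutated CTCF gave -0.055 (adjusted p = 0.30), with adjusted p-values of 0.015 after median-of-ratios rescaling and 0.036 with equal totals. A listed pseudogene on the other strand, 4931440P22Rik, overlaps Tiparp; the libraries are strand-specific, but the strand setting used in counting is not given in the sources used here.

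Cyp1a1 (ENSMUSG00000032315.6, chromosome 9, 57687928 to 57703824, plus strand), the monooxygenase most used as a readout of the receptor, stood at 9.19 and 9.48 normalized reads in the untreated control, which is 11 reads in each library. The untreated level is under the minimum mean for testing, which Cyp1a1 passed through the other groups. The IAA-treated control gave 161 and 144, wild-type CTCF 292 and 313, and mutated CTCF 29.3 and 31.6. No library of any group overlapped another group. The ratio of means was 16.3 between the control with and without IAA, and the wild-type mean was 9.94 times the mutated mean. Mutated CTCF still lay 3.26 times above the untreated control, and the wild-type CTCF mean was 1.99 times that of the IAA-treated control. These ratios led to the choice of the group and carry no test.

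Cyp1b1 (ENSMUSG00000024087.4, chromosome 17, 79701537 to 79715061, minus strand), the related extrahepatic cytochrome, was scarce. The untreated control gave 0.836 and 3.45 normalized reads, the IAA-treated control 15.5 and 23.1, wild-type CTCF 42.0 and 38.5, and mutated CTCF 4.18 and 1.98. The untreated and mutated CTCF libraries overlapped, and both lay below the IAA-treated control, which lay below wild-type CTCF. Every gene of the deposited table had at least 10 reads in 2 libraries, and Cyp1b1 met this, and the minimum mean, only through the IAA-treated control and wild-type CTCF, so a difference was built into its being listed and no test is given. With IAA it stood on 34 reads against 5, a count ratio of 9.16 and a log2 fold change of 2.80, given as description only. Mutated CTCF had 6 reads against 84 with wild-type CTCF, a count ratio of 0.0754 and a log2 fold change of -3.39, again as description only. With a pseudocount of 10 in place of 1 these fold changes were 1.27 and -1.95. Wild-type CTCF had 84 reads against 34 in the IAA-treated control, a count ratio of 2.08, also as description only. For mutated CTCF against the untreated control the count ratio was 1.44 (0.365 to 5.95), so a gap of more than 2-fold either way was not excluded at this depth. That interval covers counting error only, since reads may be copies of 1 molecule.

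**Figure D1:**
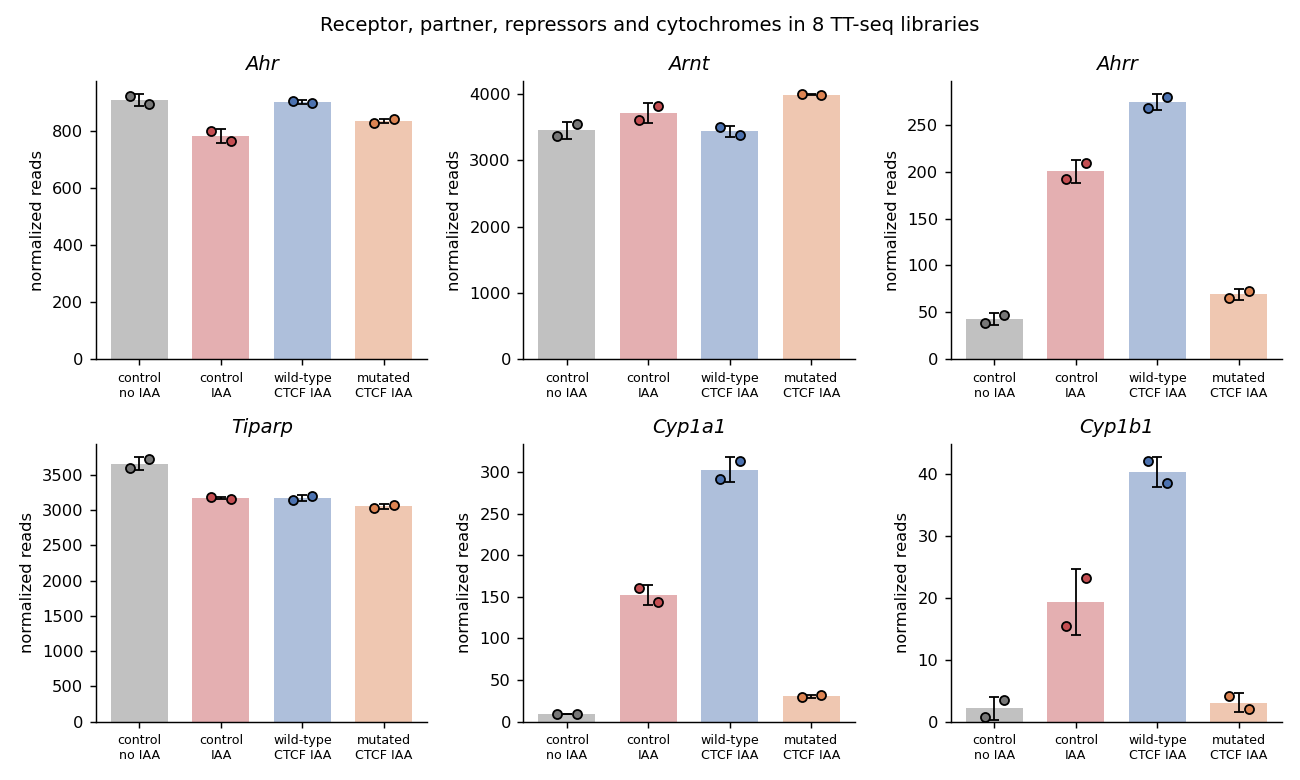
Normalized reads (vertical axis, from 0) of the 6 genes in the 4 groups; points are libraries, bars are means and whiskers 1 SD (n = 2). Cyp1a1, Cyp1b1 and Ahrr are highest with wild-type CTCF and far lower with mutated CTCF (303 against 30.4 for Cyp1a1), while Ahr, Arnt and Tiparp stay within a narrow range.

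The DNA ahead of the start sites is shown because Cyp1a1, Cyp1b1 and Ahrr stood higher with IAA and lower with mutated than wild-type CTCF and Tiparp did not, although all 4 are described receptor targets. Sequences are from RefSeq on GRCm38.p6, 5′ to 3′ on the strand of the gene, with GCGTG, or CACGC where the core lies on the other strand, in capitals; overlapping matches count separately. Of the 6 genes, 5 had a promoter window, which runs from 250 bases before to 50 after the start; Ahr had none. For Cyp1a1 the promoter window (chr9:57697363-57697662, plus strand) held 1 core, and the 300 bases with the most cores among the 1500 before the start (chr9:57696169-57696468, -1444 to -1145 from the start) held 5. The latter lies within the annotated gene, because a longer transcript starts farther upstream, and overlaps no exon of it. For Cyp1b1 the densest 300 bases (chr17:79715735-79716034, minus strand) also held 5, for the Ahrr promoter window (chr13:74292282-74292581, minus strand) there were 3, and the densest 300 bases of Tiparp (chr3:65527580-65527879, plus strand) held 3.
Cyp1a1 promoter window: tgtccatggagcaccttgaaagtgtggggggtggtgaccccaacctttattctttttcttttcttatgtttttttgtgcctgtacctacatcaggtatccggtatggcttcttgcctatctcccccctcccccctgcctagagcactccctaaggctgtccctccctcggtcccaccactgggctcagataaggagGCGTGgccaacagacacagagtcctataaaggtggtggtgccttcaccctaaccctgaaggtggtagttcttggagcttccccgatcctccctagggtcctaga
Cyp1a1 upstream: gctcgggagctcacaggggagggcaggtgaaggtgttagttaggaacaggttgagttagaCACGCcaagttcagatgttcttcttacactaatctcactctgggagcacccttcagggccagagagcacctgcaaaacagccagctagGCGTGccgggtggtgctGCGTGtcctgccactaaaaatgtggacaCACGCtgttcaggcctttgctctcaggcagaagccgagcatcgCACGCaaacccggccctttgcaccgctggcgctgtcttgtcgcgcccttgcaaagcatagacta
Cyp1b1 upstream: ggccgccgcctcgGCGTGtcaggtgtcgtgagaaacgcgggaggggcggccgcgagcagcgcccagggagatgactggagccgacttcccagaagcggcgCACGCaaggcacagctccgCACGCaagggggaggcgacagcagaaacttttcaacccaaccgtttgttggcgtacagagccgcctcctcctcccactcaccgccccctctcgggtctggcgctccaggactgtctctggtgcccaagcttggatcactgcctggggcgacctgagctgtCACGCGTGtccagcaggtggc
Ahrr promoter window: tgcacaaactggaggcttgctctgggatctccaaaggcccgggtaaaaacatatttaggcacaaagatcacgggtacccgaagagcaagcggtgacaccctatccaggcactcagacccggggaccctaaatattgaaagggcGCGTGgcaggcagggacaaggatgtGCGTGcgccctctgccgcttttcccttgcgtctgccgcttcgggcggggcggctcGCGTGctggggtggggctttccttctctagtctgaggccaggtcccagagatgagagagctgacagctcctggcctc
Tiparp upstream: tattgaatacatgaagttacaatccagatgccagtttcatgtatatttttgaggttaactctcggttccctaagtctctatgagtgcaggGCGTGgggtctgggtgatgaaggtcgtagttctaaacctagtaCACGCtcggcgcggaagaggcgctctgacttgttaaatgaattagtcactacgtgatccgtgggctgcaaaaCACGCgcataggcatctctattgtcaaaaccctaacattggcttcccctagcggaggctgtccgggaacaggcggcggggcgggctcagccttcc

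In the 1500 bases before the start, Cyp1a1 held 12 cores and Cyp1b1 10, Ahrr and Tiparp 6 each, and Arnt 1. Of the genes with levels most like those of Cyp1a1, named further on, those other than Ahrr held fewer: Aox3 3, Mobp 2, and Pde4b and Phactr1 0 to 2 by start site, and the other targets Cyp1a2 and Nqo1 held 2 and 1. Over 32851 such windows of RefSeq genes the median was 1 core. At least 12 were found in 0.0822% of windows, at least 10 in 0.225%, at least 6 in 2.64% and at least 1 in 61.9%. Within the promoter windows, at least 1 core was found in 32.4% of all windows, as in those of Arnt, Cyp1a1, Cyp1b1 and Tiparp, and at least 3, as in Ahrr, in 3.91%. The upstream windows of these genes were 42.1% (Arnt) to 56.9% (Cyp1a1) G or C, and the background was not matched for base composition.

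**Figure D2:**
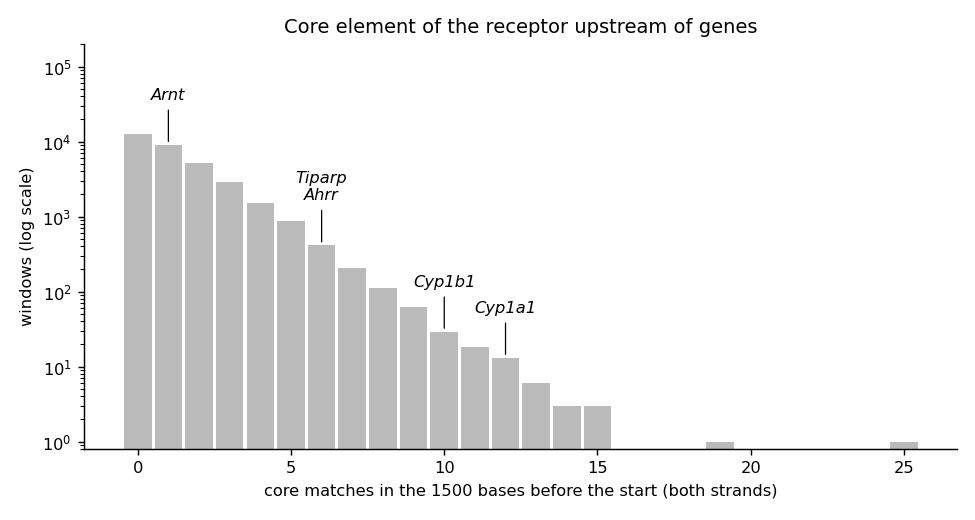
Number of core matches on both strands in the 1500 bases before the start (horizontal axis) and number of RefSeq windows with that count (vertical axis, log scale). Cyp1b1 with 10 and Cyp1a1 with 12 lie in the thin upper tail, Ahrr and Tiparp share 6, and Arnt has 1.

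The control cells with and without IAA differ in the exposure to IAA and in whatever CTCF loss it caused, which was not measured here. Of Ahr, Arnt, Ahrr and Tiparp, the 4 genes counted here, Ahrr and Arnt rose and Ahr and Tiparp fell, so all 4 passed, where 37.7% of all 15818 genes tested did (19.4% higher and 18.4% lower; with equal totals 38.5% of the calls were higher, against 51.3% here). Without replicate 1 of the untreated control or replicate 2 of the IAA-treated control 2 of the 4 passed. The libraries of the groups did not overlap for any of the 4, as for 68.2% of all genes. In size, Ahrr moved by 2.20 on the log2 scale, while Ahr, Arnt and Tiparp moved by at most 0.21. The standard errors of Ahr, Arnt and Tiparp were 0.059, 0.040 and 0.039, below the median of 0.10 over all genes. Over all genes the median log2 fold change was -0.0017.

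With wild-type CTCF under IAA, Ahrr stayed above the untreated control. Against the IAA-treated control, Ahr and Ahrr were higher and Arnt lower, so 3 of 4 passed (31.6% of all genes, 21.5% higher and 10% lower), and 1 of 4 without replicate 2 of the IAA-treated control or of wild-type CTCF. The groups did not overlap for 3 of the 4 (64.4% of all genes), and the mean of Cyp1a1 was also above that of the IAA-treated control. Against the untreated control, Ahrr was higher by 2.66 (SE 0.14, adjusted p = 3.3e-18) and Tiparp was lower, 2 of 4 (43.2% of all genes, 27.6% higher and 15.6% lower), with groups that did not overlap for 2 of 4 (71.5% of all genes). Cyp1b1, untested, stood on 84 reads against 5. Ahr and Arnt differed from the untreated control by -0.0089 (95% interval -0.13 to 0.11) and -0.0047 (-0.085 to 0.076); with equal totals Arnt passed as lower, by -0.087 (adjusted p = 0.040). Comparisons that share the IAA-treated control or the untreated control are not independent of one another.

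With mutated CTCF, Ahrr was below the IAA-treated control and Arnt was higher, 2 of 4 (34.3% of all genes, 22% higher and 12.4% lower; 1 of 4 without replicate 1 of the IAA-treated control or either mutated CTCF library), and the groups overlapped for none of the 4 (65.1% of all genes did not overlap). Against the untreated control Ahrr and Arnt were higher and Tiparp lower, 3 of 4 (37.8% of all genes, 24% higher and 13.7% lower), and the groups did not overlap for 4 of 4 (67.9% of all genes). In the direct comparison of the CTCF forms, which share IAA, Ahrr was lower and Arnt higher with mutated CTCF, 2 of 4 (34.7% of all genes, 16.3% higher and 18.4% lower), and the groups did not overlap for 4 of 4 (65.5% of all genes). After median-of-ratios rescaling 50.3% of the calls were higher for wild-type and 50.2% for mutated CTCF against the IAA-treated control (68.3% and 63.9% here), and 51.8% and 52.1% against the untreated control (64.0% and 63.6% here; 45.5% and 43.1% with equal totals). The shares of called genes stand against this background; in size, Ahrr ranked 23 from the lowest among the 15818 fold changes of mutated against wild-type CTCF. Over all 15818 genes tested, 369 were at least 2-fold higher with IAA, and 58 of these were at least 2-fold lower with mutated than with wild-type CTCF. The share of all genes at least 2-fold lower between the forms was not counted, so the 58 have no background here. Cyp1a1, Ahrr and Cyp1b1 are among them as description only. Cyp1a1 led to the choice of the group, and Cyp1b1 was listed only through the groups in which it was high.

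**Figure D3:**
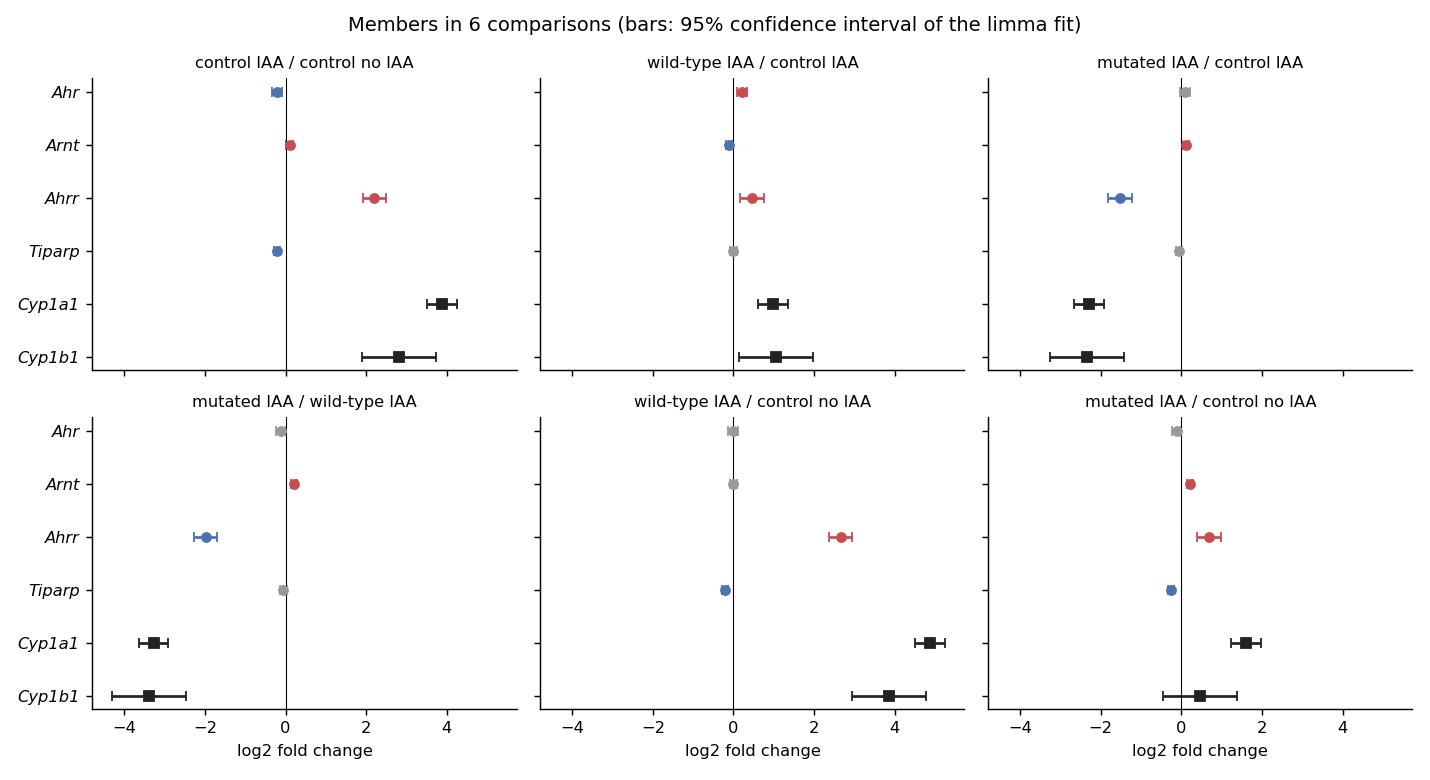
Log2 fold changes (horizontal axis) of the 6 genes in the 6 comparisons, with 95% confidence intervals of the limma fit; red is higher and blue lower past an adjusted p of 0.05, grey did not pass, and the black squares are Cyp1a1 and Cyp1b1, which carry no test. Ahrr lies at 2.20 with IAA and at -1.98 for mutated against wild-type CTCF, with Ahr, Arnt and Tiparp near 0 throughout.

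Among 14 other described receptor targets, 9 were listed and 7 tested. Cyp1a2, the neighbour of Cyp1a1 on the opposite strand with 4224 bases between the annotated genes, was below the minimum mean. It gave 5.02 and 1.72 normalized reads in the untreated control, 13.1 and 13.2 with IAA, 16.6 and 17.1 with wild-type CTCF and 2.09 and 6.92 with mutated CTCF, so the untreated and mutated CTCF libraries overlapped and were the low ones; it too was listed only through the other groups. Nqo1, a quinone reductase also driven by NRF2, gave 449 and 499 in the untreated control, 760.0 and 702 with IAA, 687 and 794 with wild-type CTCF, and 470.2 and 499 with mutated CTCF. It rose with IAA by 0.62 (SE 0.075, adjusted p = 7.2e-09) and was lower with mutated than wild-type CTCF by -0.61 (SE 0.075, adjusted p = 2.3e-08). Gsta2, a glutathione transferase, was split otherwise: 16.7 and 28.4 without IAA, 46.5 and 55.0 with IAA, 25.4 and 19.3 with wild-type CTCF, and 48.1 and 52.4 with mutated CTCF. It rose with IAA by 1.17 (SE 0.26, adjusted p = 3.1e-04) and was higher with mutated than wild-type CTCF by 1.15 (SE 0.26, adjusted p = 5.1e-04); reads of near-identical glutathione transferase genes may be shared, so its level is uncertain. Socs2, a feedback inhibitor of cytokine signalling, fell by 0.555 with IAA (adjusted p = 6.3e-12), and Cyp2s1, another cytochrome, was 0.82 higher with wild-type CTCF than in the IAA-treated control (SE 0.31, adjusted p = 0.038). With IAA, 2 of the 7 were higher and 2 lower (median 0.088, all genes -0.0017), where 37.7% of all genes passed, and with mutated against wild-type CTCF 2 were higher and 1 lower (median -0.0079, all genes -0.0087), where 34.7% did. Aldh3a1 was listed at a mean below the minimum, and Ugt1a6a, Ugt1a6b, Gsta1, Serpinb2 and Scin were not among the listed genes.

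The list of cytosolic complex genes and coactivators (7 genes, all tested) had 4 genes higher and 0 lower with IAA (median 0.28, all genes -0.0017; 19.4% of all genes were called higher and 18.4% lower). Hsp90ab1, the constitutive HSP90, gave 11538 and 11170 normalized reads without IAA, 15501 and 15588 with IAA, 15752 and 17598 with wild-type CTCF, and 15665 and 16491 with mutated CTCF. The untreated libraries lay below all others, and Hsp90ab1 was 0.55 and 0.50 above the untreated control with wild-type and mutated CTCF (adjusted p = 1.8e-16 and adjusted p = 3.3e-15). Against the untreated control, 6 of 7 were higher with wild-type CTCF (median 0.22, all genes 0.053; 4 of 7 under either other scaling) and 7 of 7 with mutated CTCF (median 0.28, all genes 0.052), where 27.6% and 24% of all genes were called higher. Between the CTCF forms 3 were higher and 1 lower with mutated CTCF (median 0.013, all genes -0.0087; 16.3% and 18.4% of all genes).

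Of 13 other bHLH-PAS genes, 10 were listed and 9 tested, with 3 higher and 3 lower with IAA (median 0.042, and -0.0087 with equal totals; 19.4% and 18.4% of all genes). Arnt2, a paralogue of Arnt, gave 555 and 570 normalized reads without IAA, 768 and 831 with IAA, 572 and 543 with wild-type CTCF and 544 and 578 with mutated CTCF. It rose with IAA by 0.51 (SE 0.069, adjusted p = 1.1e-07) and was lower by -0.52 and -0.51 with either CTCF form than in the IAA-treated control (adjusted p = 1.5e-07 and adjusted p = 1.7e-07), an order unlike that of Ahrr. Epas1, a hypoxia factor, fell by 0.56 with IAA (SE 0.077, adjusted p = 1.1e-07) and was 0.54 higher with wild-type CTCF than in the IAA-treated control (adjusted p = 6.7e-07). With mutated against wild-type CTCF 0 were higher and 4 lower (median -0.27, all genes -0.0087; 16.3% of all genes were called higher and 18.4% lower), among them Npas3, a neuronal member of the family, at -0.56 (SE 0.18, adjusted p = 0.016). Npas3 was also lower with mutated CTCF than in the IAA-treated control by -0.70 (adjusted p = 0.0024). Sim2 was below the minimum mean, and Npas1, Npas4 and Sim1 were not among the listed genes. Of 10 genes that form tryptophan-derived ligands, only Il4i1, Kyat1 and Kyat3 were listed, and 0 of the 3 were higher and 1 lower with IAA (37.7% of all genes passed). That 1 was Il4i1, an amino acid oxidase, with a log2 fold change of -0.23 (adjusted p = 0.030); it was named after its value was seen. With mutated CTCF Il4i1 was 0.43 higher than in the IAA-treated control (adjusted p = 1.3e-04) and 0.24 higher than with wild-type CTCF (adjusted p = 0.026). Between the CTCF forms 1 of the 3 was thus higher and 1 lower (16.3% and 18.4% of all genes), the latter being Kyat3, a kynurenine aminotransferase, at -0.17 (adjusted p = 0.0095). Tdo2, Ido1, Ido2, Afmid, Aadat, Kmo and Kynu were not among the listed genes.

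**Figure D4:**
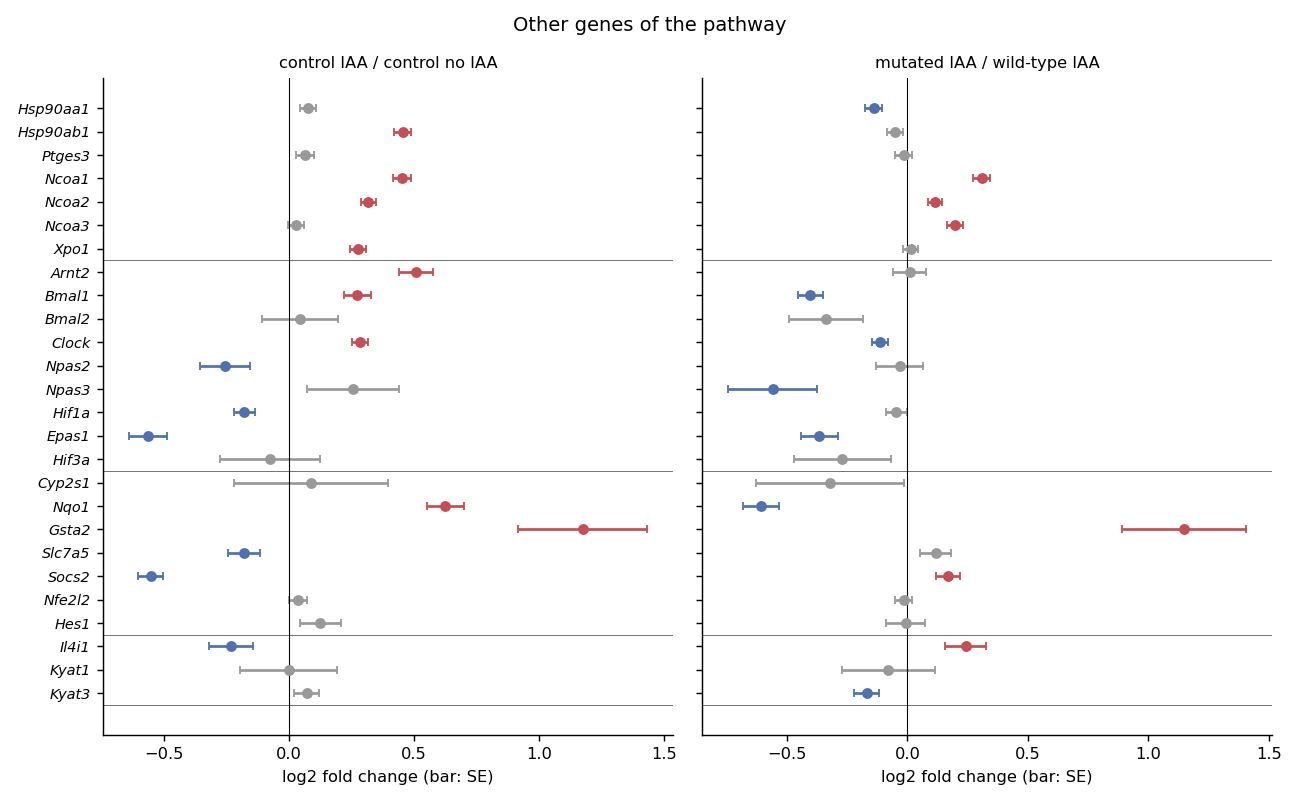
Log2 fold changes with standard errors (horizontal axes) of the other tested pathway genes, with IAA on the left and for mutated against wild-type CTCF on the right; red is higher and blue lower past an adjusted p of 0.05 and grey did not pass. Nqo1 is higher on the left and lower on the right, while Gsta2 is higher in both.

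The genes whose levels most resembled those of Cyp1a1 were found by Pearson's r of log2 values over the 8 libraries, which form only 4 groups, among 61 genes with a mean of at least 50 and a spread of at least 2 (log2) between group means. The highest were Mobp (r = 0.994), Ahrr (r = 0.993), Pde4b (r = 0.978), Phactr1 (r = 0.971) and Aox3 (r = 0.966). Mobp, a myelin protein gene, gave 174 and 183 normalized reads without IAA, 511 and 574 with IAA, 795 and 757 with wild-type CTCF, and 308 and 293 with mutated CTCF. Aox3, an aldehyde oxidase, stood at 42.4 ± 3.9 (SD, n = 2), 246 ± 8.8, 249.4 ± 4.7 and 111 ± 3.6 in the same order of groups, and Phactr1, a phosphatase and actin regulator, at 40.8 ± 8.1, 98.5 ± 5.6, 166 ± 16 and 65.5 ± 0.41. Of the other members Cyp1b1 had r = 0.947 with Cyp1a1, Arnt -0.12, Ahr -0.25 and Tiparp -0.62. These values describe likeness of level only.

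**Figure D5:**
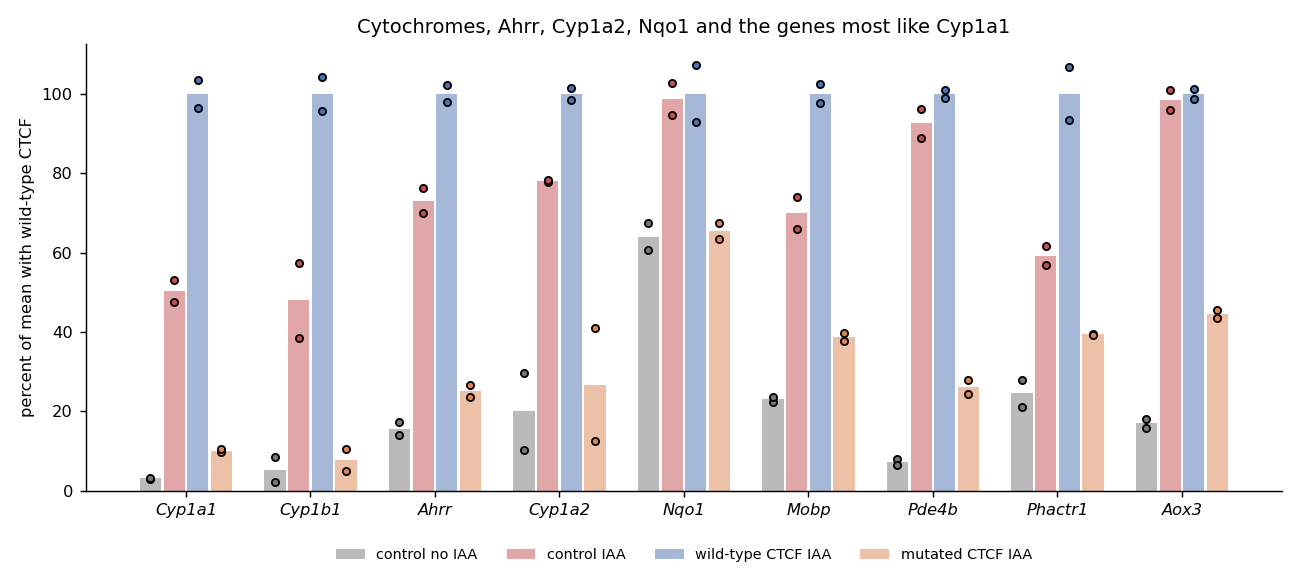
Levels as a percentage of the gene's mean with wild-type CTCF (vertical axis) for Cyp1a1, Cyp1b1, Ahrr, Cyp1a2, Nqo1 and the genes most like Cyp1a1; bars are group means and points libraries (n = 2). With mutated CTCF, Cyp1a1 is at 10.1%, Cyp1b1 at 7.65%, Ahrr at 25.1% and Nqo1 at 65.5% of that mean, and without IAA at 3.08%, 5.32%, 15.6% and 64.0%.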

How the data were processed

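TT-seq libraries of 8 samples (4 groups of 2, grouped and numbered by their titles) were analysed. The authors deposited normalized read counts per gene, a signal in which every value of a library is a whole multiple of 1 step, so reads behind a value were obtained by dividing by that step (100% whole within 0.01). Trim Galore, STAR, featureCounts, DESeq2 and mm10 are named in the submitters' processing notes, with no role or version; the annotation is not given in the sources used here. The table had 0 columns outside the series, and each gene in it had at least 10 reads in 2 libraries. The Ctcf transcript, which does not measure degradation of the protein, was not analysed here.

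limma (version 3.58.1, R 4.3.3) was fitted to log2(value + 1) of the 15818 genes with a mean of at least 10, with 1 coefficient per group, 4 residual degrees of freedom, empirical Bayes with a mean-variance trend and Benjamini-Hochberg adjustment over all tested genes (threshold 0.05). The fit was first tested on simulated data. Members and lists were chosen with earlier results of these data known; 1 gene of the pathway lists is not reported here. All members are named; of each pathway list, genes past the threshold that moved by 0.5 or more (log2) either way, in a comparison described, and genes not tested, are named; single markers were named after their values were seen. Genes like Cyp1a1 are the 5 highest by Pearson's r. Motifs were searched as plain letters on both strands in RefSeq windows and the GRCm38.p6 genome; the window of 1500 bases was chosen after seeing the data. Alternatives were pseudocounts of 0.5 and 10, no filter or a minimum of 50, rescaling by median of ratios or to equal totals, a fit of 2 groups alone, no trend, a replicate block, and each library left out.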

Additional observations from a re-analysis of the deposited data

How the results depend on the processing

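Of 462 recomputed log2 fold changes of the 6 genes, 422 kept their direction and their side of the threshold (for Cyp1a1, moved by less than the replicate SD). Of the rest 19 were no longer past it, 7 newly passed, 8 of Cyp1a1 moved, 1.06 at the lowest with a pseudocount of 10, and 6 changed sign. Those 6 were uncalled values, all on leaving out 1 library, and near 0 except that of Cyp1b1: Tiparp with wild-type CTCF against the IAA-treated control (-0.016 to 0.013), Ahr and Arnt with wild-type CTCF against the untreated control (-0.032 to 0.015 and -0.042 to 0.033), and Cyp1b1 with mutated CTCF against the untreated control (-0.18 to 1.10). Without the mean-variance trend, calls over all genes fell from 5967 to 3946 with IAA and from 4991 to 2379 with wild-type CTCF. They fell from 5433 to 3228 with mutated CTCF and from 5489 to 3263 between the CTCF forms. For mutated CTCF against the untreated control they fell from 5975 to 3869. Of Ahr, Arnt, Ahrr and Tiparp, the number called with wild-type CTCF against the IAA-treated control fell from 3 to 1. Leaving out 1 library gave 2 to 4 called of these 4 genes with IAA and 1 to 3 with wild-type CTCF. All-gene calls with wild-type CTCF were then 3274 (without replicate 2 of wild-type CTCF) to 4622. Such fits leave 1 library in a group, so these counts are description only. The cause of their spread was not tested. Same-numbered libraries had deviations correlated at 0.0037 on average over 6 pairs of groups (-0.022 to 0.028), so no shared deviation was seen. This does not show whether same-numbered libraries were handled together. With the replicate block 6423 genes passed with IAA, as did 4 of 4 among Ahr, Arnt, Ahrr and Tiparp, and the block changed no member's call. With a minimum mean of 10, 3 of the 5 genes most like Cyp1a1 were shared. The count-model alternatives were not run, because 1 library's step is too close to 1 for the criterion used here for recovered reads. Depth limits Cyp1b1, which rests on 5 and 6 reads in its low groups. Cyp1b1 is among the 462 values, but its side of the threshold carries no test.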
